A study of Homo sapiens with 6 samples.

Results

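The genes described here are 42 NF-kB response genes and inflammatory cytokines, taken by name from a table of 33117 genes in cultured prostate stromal cells. By role they are 5 NF-kB subunits, 7 members of the inhibitor family or negative regulators, 12 further response genes, 8 cytokines and 10 chemokines. All 42 had a row, 41 under the current symbol and CXCL8 under its older symbol IL8. RNA was sequenced from WPMY-1, an immortalised human cell line from normal prostate stroma, grown in DMEM with serum. The shCtrl group (3 libraries) carried the lentiviral control plasmid pLKO1, and the shCAVIN1 group (3 libraries) carried a short hairpin RNA against CAVIN1, whose protein helps to form caveolae, small pits of the cell membrane. Both groups were transduced and selected with puromycin, and the knockdown cells are described as stable clones made with a single hairpin sequence. The series calls the libraries of a group biological replicates but gives no transduction or clone for each, so p-values below measure only the spread between these libraries, which may be technical. No cytokine or other stimulus is named for either group.

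NF-kB is a family of paired transcription factors built from the subunits RELA, RELB, REL, NFKB1 and NFKB2. Inhibitor proteins such as NFKBIA hold the pairs in the cytoplasm until a kinase complex marks the inhibitors for breakdown, after which the factor enters the nucleus and switches on cytokines, adhesion molecules, survival genes and, as feedback, its own inhibitors. In connective tissue cells it is best known for driving the release of chemokines that attract leukocytes.

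NF-kB subunits bind a short DNA motif, the kappa B site. The RefSeq promoter table (GRCh38.p14) held a window for 33 of the 42 genes, each running from 250 bases before an annotated start to 50 bases after it. The kappa B consensus, read on both strands, was found in the windows of 20 of these 33 genes (60.6%). It was found for 1937 of all 27305 genes with a window (7.09%) and for 850 of 9617 tested genes with a window (8.84%). Among 21 other secreted cytokines and chemokines with a window, a list read further below, 10 had it (47.6%). In the remaining lists read below, of receptors, kinases, adaptors and negative regulators, the share was 8.33% to 22.2%. The 42 genes were listed as NF-kB response genes, so a higher share may follow from how the list was made. Counted by window, it was in 44.9% of 49 windows of the 42 genes and in 5.91% of all 35116 windows. With windows for 78.6% of the genes, below a minimum of 80%, the shares describe only the genes that have one and are void as a check over all 42. The genes without a window were RELB, NFKBIE, RIPK2, IER3, LIF, CSF1, CXCL16, CCL2 and CX3CL1. The following stretches of 30 bases show the matches of genes that rose, of the neighbouring CXCL chemokines and of REL and TNIP1, which did not rise, with the matched letters in capitals (5′ to 3′ on the strand of the gene, GRCh38.p14):
NFKBIA, chr14:35404811-35404840, minus strand: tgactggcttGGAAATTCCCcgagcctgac
NFKB1, chr4:102501300-102501329, plus strand: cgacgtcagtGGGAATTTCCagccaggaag
CD83, chr6:14117687-14117716, plus strand: ctgcccgccGGGGAATCCCCCgggctggcg
PTX3, chr3:157436744-157436773, plus strand: ccaaattcaGGGGAACTCCCgttaccgcag
IL32, chr16:3065295-3065324, plus strand: ctgtactcaGGGAGTTTCCCcagccagctg
CXCL1, chr4:73869305-73869334, plus strand: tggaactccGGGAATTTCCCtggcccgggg
CXCL2, chr4:74099253-74099282, minus strand: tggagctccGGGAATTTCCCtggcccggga
CXCL3, chr4:74038748-74038777, minus strand: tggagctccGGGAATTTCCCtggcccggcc
CXCL5, chr4:73998748-73998777, minus strand: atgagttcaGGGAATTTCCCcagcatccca
REL, chr2:60881518-60881547, plus strand: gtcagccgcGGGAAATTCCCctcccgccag
TNIP1, chr5:151081057-151081086, minus strand: ccagtctccgGGGACTTTCCcaggggtggg

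CXCL1, CXCL2, CXCL3 and CXCL5, which lie near each other on chromosome 4, carried the same 11 letters at 78 to 91 bases before the start. The NFKBIA stretch holds the consensus on the opposite strand, so its letters read as the reverse complement. Of 27 matches, 18 began at positions -110 to -40 from the annotated start, in 16 of the 20 genes. A match is a description of letters in a window and not of binding. A pair of longer stretches shows the setting of such a match before the start of a feedback inhibitor and of an adhesion molecule, again with matches in capitals:
NFKBIA, chr14:35404750-35404999, minus strand: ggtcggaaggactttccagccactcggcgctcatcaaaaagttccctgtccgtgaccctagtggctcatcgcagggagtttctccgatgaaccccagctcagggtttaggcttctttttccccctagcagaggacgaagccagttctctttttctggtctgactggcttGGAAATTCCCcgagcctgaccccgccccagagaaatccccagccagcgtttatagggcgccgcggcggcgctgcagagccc
VCAM1, chr1:100719492-100719741, plus strand: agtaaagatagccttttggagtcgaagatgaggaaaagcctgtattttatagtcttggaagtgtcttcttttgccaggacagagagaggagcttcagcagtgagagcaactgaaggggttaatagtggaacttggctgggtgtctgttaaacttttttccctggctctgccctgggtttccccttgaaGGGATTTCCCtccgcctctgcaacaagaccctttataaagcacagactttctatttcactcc

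**Figure D1:**
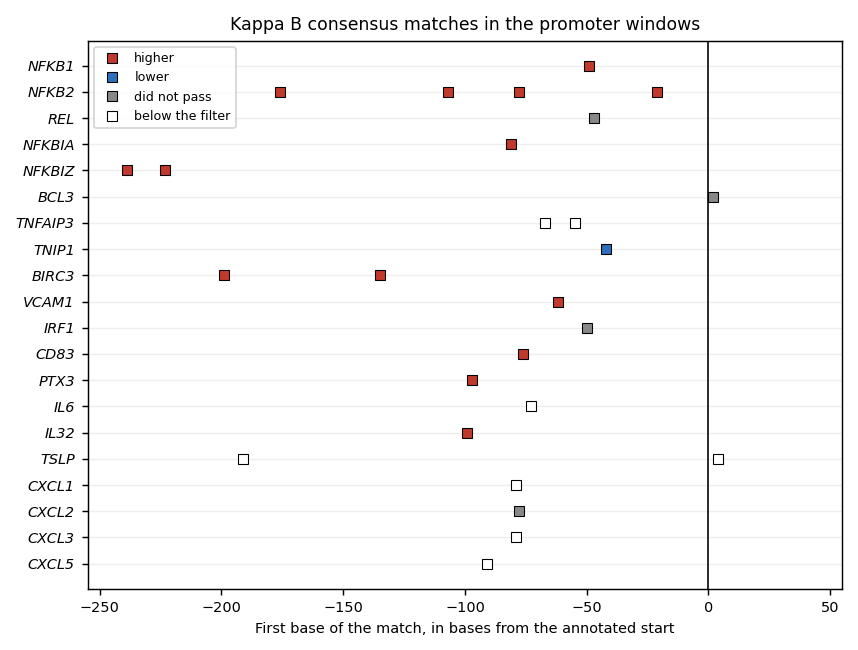
Position of each kappa B consensus match (square; the first base, in bases from the annotated start, which is at 0) in the promoter windows of the 20 genes with a match, coloured by the result of the gene in shCAVIN1. Most squares stand between -110 and -40, and genes that rose, fell, did not pass or were below the filter all have matches there.

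Shares with a match were then set beside the direction. Of 14 genes of the 42 that rose and have a window, 9 had a match (64.3%), of 2 that fell 1 had one (50%), and of 6 that did not pass, 4 had one (66.7%). Among all other tested genes with a window, 244 of 836 with a match rose (29.2%) and 2564 of 8759 without a match rose (29.3%), while 28.7% and 29.2% fell, with median log2 fold changes of -0.01 in both. Windows were found for 69% of tested genes, so these values too describe only genes with a window.

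Values are FPKM (fragments scaled to transcript length and to all mapped fragments of the library), so levels of different genes are compared per length. The FPKM sums of the libraries lay between 758837 and 1043843, and between 12422 and 12605 genes reached an FPKM of 1. One library stood apart: in shCtrl replicate 2 the abundant noncoding RNA RN7SK had a value of 0, against 106035 to 151555 FPKM in the other 5. CAVIN1, the targeted gene (listed as PTRF), stood at 329.6, 346.9 and 330.3 FPKM in shCtrl and at 133.9, 138.8 and 150.2 FPKM in shCAVIN1, which is 42% of the control mean (log2 fold change -1.25, SE 0.0586, limma adjusted p = 2.88e-05). Stromal markers were at an FPKM of 1 or more in every library for 13 of 14 genes, with summed levels of 1900 to 2046 FPKM in shCtrl and 1287 to 1302 in shCAVIN1. Of 14 leukocyte markers, 8 stayed under 0.1 FPKM in every library, and CD3E, CD2, FCGR3A and TYROBP were listed at 0 throughout. The pan-leukocyte gene PTPRC lay between 0.0236 and 0.0655 FPKM in shCtrl and between 0.128 and 0.148 FPKM in shCAVIN1. Other markers were lower there: the monocyte gene CD14 fell from a mean of 1.22 to 0.508 FPKM (log2 -0.77, limma adjusted p = 0.00261), AIF1 was at 0.0274 to 0.0698 FPKM in shCtrl and listed at 0 in all of shCAVIN1, and LYZ averaged 0.417 and 0.308 FPKM with overlapping groups. The summed level of these markers was 8.06 to 8.72 FPKM in shCtrl and 10.3 to 10.4 FPKM in shCAVIN1, most of it CD68, a lysosomal protein that other cells also make. CD68 rose from a mean of 6.44 to 9.25 FPKM (log2 0.49, limma adjusted p = 0.000951). MS4A1, too low to be tested, was at most 0.0146 FPKM in shCtrl and at 0.0458 to 0.1045 FPKM in shCAVIN1. The 8 endothelial markers summed to 0.439 to 0.890 FPKM in shCtrl and 1.19 to 1.36 FPKM in shCAVIN1, and EMCN was listed at 0 throughout. TEK rose from a mean of 0.227 to 0.941 FPKM (limma adjusted p = 0.000458), and was high enough to be tested only through shCAVIN1. CLDN5, too low to be tested, was at 0.228, 0.512 and 0.1795 FPKM in shCtrl and lower in shCAVIN1, at 0.127, 0.138 and 0.0244 FPKM. PECAM1 averaged 0.0553 and 0.0341 FPKM with overlapping groups. VWF, CDH5, KDR and ERG had higher means in shCAVIN1 but were at most 0.110 FPKM in any library. The 11 epithelial markers summed to 399.6 to 433.5 FPKM in shCtrl and 243.9 to 259 FPKM in shCAVIN1, with KLK3, KLK2 and FOLH1 listed at 0 throughout. In bulk RNA, fewer cells with a message and less of it per cell cannot be told apart, and the part of other cell types in the results below was not tested.

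Of the 42 genes, 30 averaged 0.5 FPKM or more across all 6 libraries and were tested with limma on log2(FPKM + 0.5), a scale that understates changes of low genes. With a Benjamini-Hochberg adjusted p under 0.05 over all 13941 tested genes, 19 of the 30 rose (63.3%), 3 fell (10%) and 8 did not pass. Over all tested genes 27.3% rose and 28.2% fell, 55.5% in all. The median log2 fold change of the 30 genes was 0.33, against -0.02 over all tested genes. At least a 2-fold rise was called for 7 of the 30, where 2.65% of all tested genes rose that far, and no gene of the 30 fell 2-fold, where 2.89% of all did. Groups without overlap were seen for 23 of the 30 (64.6% of all tested genes), 20 on the higher side (31.3% of all) and 3 on the lower side (33.3% of all). VCAM1, IL32 and CXCL2 passed the filter with a mean under 0.5 FPKM in one of the groups. The genes were named with results of these data known, so the counts are a description. Rescaling each library to the same sum of 1000000 (TPM), which shifted the median over all genes to 0.09 and the share of higher genes among those called from 49.2% to 64.5%, left 14 rises and 1 fall among these genes, where 15.8% of all tested genes rose and 8.72% fell.

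**Figure D2:**
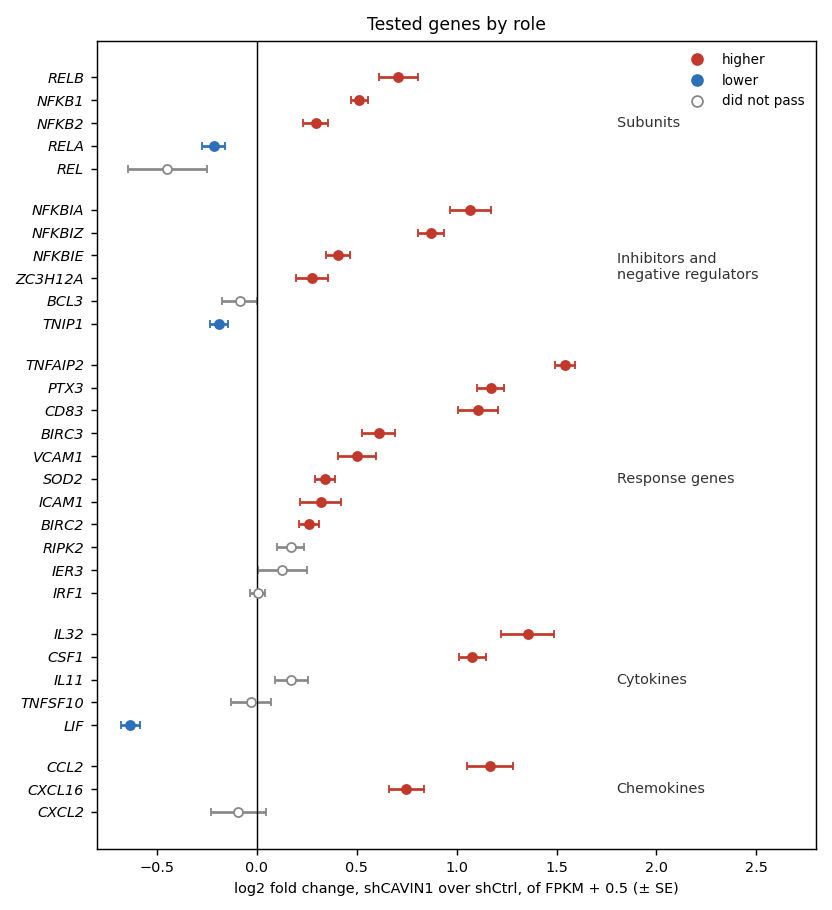
Log2 fold change of FPKM + 0.5 (x axis, shCAVIN1 over shCtrl, bars are SE from limma, 3 libraries per group) of the 30 tested genes, grouped by role and coloured by call. At this pseudocount TNFAIP2 at 1.54 and IL32 at 1.35 stand farthest to the right, and LIF at -0.63 farthest to the left.

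Among the subunits, NFKB1, NFKB2 and RELB rose, RELA fell and REL did not pass. NFKB1, the p105 precursor of the p50 subunit (chromosome 4, 102501329 to 102617302, plus strand, GRCh38), stood at 6.90, 7.31 and 7.14 FPKM in shCtrl (replicates in order, here and below) and at 10.5, 10.1 and 10.5 FPKM in shCAVIN1. The groups did not overlap, and the mean rose 1.46-fold, from 7.11 ± 0.206 to 10.4 ± 0.223 FPKM (SD, n = 3 each; log2 0.51, SE 0.0429, limma adjusted p = 0.000198). RELB, the partner of NFKB2 in the slower non-canonical branch of the pathway, was the least abundant subunit in shCtrl, at 1.04, 0.889 and 0.762 FPKM, and stood at 1.67, 1.89 and 1.76 FPKM in shCAVIN1. This was the largest rise of a subunit, 1.98-fold (log2 0.71, SE 0.0972, adjusted p = 0.00139). NFKB2, the p100 precursor of p52, was at 4.52, 4.52 and 4.20 FPKM in shCtrl and at 5.71, 5.12 and 5.77 FPKM in shCAVIN1, a 1.25-fold rise (log2 0.29, SE 0.0629, adjusted p = 0.00829). After rescaling to TPM the NFKB2 fold was larger but missed the threshold (log2 0.41, adjusted p = 0.0846).

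RELA, the main activating subunit (p65) and the most abundant of the 5 in shCtrl, went the other way. It stood at 18.0, 15.8 and 16.2 FPKM in shCtrl and at 14.1, 14.6 and 14.1 FPKM in shCAVIN1, or 85.7% of control (log2 -0.21, SE 0.0578, adjusted p = 0.0205). Without shCAVIN1 replicate 1, 2 or 3 the fold was of like size (log2 -0.21, -0.23 and -0.21) but missed the threshold (adjusted p of 0.0636, 0.0507 and 0.0673), as it did under protein-coding TPM (log2 -0.21, adjusted p = 0.0859). After rescaling to TPM the fold was smaller (log2 -0.10, adjusted p = 0.685). REL, a subunit best known in lymphocytes, was at 2.70, 1.62 and 2.50 FPKM in shCtrl and at 1.94, 1.35 and 1.27 FPKM in shCAVIN1. The groups of REL overlapped through shCtrl replicate 2, and the difference did not pass (log2 -0.45, SE 0.196, adjusted p = 0.0973), but it did without that library (log2 -0.63, adjusted p = 0.0195). In the GENCODE annotation REL shares 5702 of its 13170 exon bases with AC010733.2 on the same strand, so its value is uncertain. The order of the subunit levels was RELA, NFKB1, NFKB2, REL and RELB in shCtrl. It began with RELA, NFKB1 and NFKB2 in shCAVIN1 too, where REL and RELB overlapped and differed by less than the sum of their SDs.

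Of 6 tested genes listed as inhibitors and negative regulators, 4 rose (66.7%, against 27.3% of all tested genes) and 1 fell (16.7%, against 28.2%). The 6 include NFKBIZ and BCL3, nuclear members of the inhibitor family that work as cofactors. Those that rose were NFKBIA, NFKBIZ, NFKBIE and ZC3H12A. NFKBIA, the inhibitor IkB-alpha and a classical feedback target whose promoter stretch is printed above (gene on chromosome 14, 35401511 to 35404749, minus strand), was at 9.64, 12.2 and 9.08 FPKM in shCtrl and at 21.9, 21.7 and 22.3 FPKM in shCAVIN1. The shCAVIN1 libraries lay close together and well above every control, a 2.13-fold rise of the mean (log2 1.07, SE 0.104, adjusted p = 0.000356). NFKBIZ, a nuclear member of the inhibitor family that helps NF-kB to induce a part of its targets, was at 5.75, 6.28 and 5.76 FPKM in shCtrl and at 10.4, 11.6 and 11.8 FPKM in shCAVIN1, 1.90-fold higher (log2 0.87, SE 0.0669, adjusted p = 0.000148). NFKBIE (IkB-epsilon) was at 3.72, 4.05 and 3.64 FPKM in shCtrl and at 4.96, 5.31 and 5.33 FPKM in shCAVIN1, 1.37-fold higher (log2 0.41, SE 0.0590, adjusted p = 0.00175). For these 3 members of the inhibitor family each shCAVIN1 library was above each shCtrl library.

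ZC3H12A, a ribonuclease that degrades cytokine messages, rose 1.24-fold from 3.55 ± 0.358 to 4.40 ± 0.222 FPKM (log2 0.28, adjusted p = 0.0245). This call was lost without shCtrl replicate 1 or 3, without shCAVIN1 replicate 2 or 3 (log2 0.23 to 0.28, adjusted p of 0.0679 to 0.0859) and after rescaling to TPM (log2 0.39, adjusted p = 0.134). TNIP1, which helps the enzyme A20 to switch the pathway off, fell to 87.4% of control, from 18.6 ± 0.804 to 16.2 ± 0.363 FPKM (log2 -0.19, adjusted p = 0.0137). Its call was lost without shCAVIN1 replicate 1 (log2 -0.18, adjusted p = 0.0503) or replicate 2 (log2 -0.18, adjusted p = 0.0570) and after rescaling to TPM (log2 -0.07, adjusted p = 0.793). BCL3, a nuclear cofactor of the p50 and p52 subunits, did not pass, at 2.85 ± 0.360 and 2.64 ± 0.0444 FPKM. TNFAIP3, which codes for A20 itself, was below the filter, at 0.188, 0.218 and 0.258 FPKM in shCtrl and at 0.439, 0.554 and 0.449 FPKM in shCAVIN1. Its groups did not overlap, and it passed when no filter was set (log2 0.44, adjusted p = 0.00414).

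In the response genes, 8 of 11 tested rose (72.7%, against 27.3% of all tested genes). By limma 0 fell (28.2% of all tested genes), also 0 at an unadjusted p under 0.05. TNFAIP2, a TNF-induced protein linked to the membrane tubes that some cells extend, had the largest log2 fold change of the 30 tested genes at a pseudocount of 0.5, while IL32 was above it at a pseudocount of 0.1 (log2 1.87 against 1.57) and under protein-coding TPM (1.69 against 1.57). TNFAIP2 (chromosome 14, 103123442 to 103137439, plus strand) stood at 14.3, 13.3 and 14.3 FPKM in shCtrl and at 39.9, 42.02 and 43.0 FPKM in shCAVIN1, a 2.98-fold rise (log2 1.54, SE 0.0493, adjusted p = 1.01e-05). PTX3, a secreted pattern recognition protein, was at 6.05, 6.66 and 6.22 FPKM in shCtrl and at 13.6, 15.6 and 15.4 FPKM in shCAVIN1 (log2 1.17, SE 0.0673, adjusted p = 5.71e-05). CD83, a surface protein known from activated dendritic cells, was at 1.02, 1.25 and 1.35 FPKM in shCtrl and at 3.40, 3.24 and 2.87 FPKM in shCAVIN1, 2.63-fold higher (log2 1.11, SE 0.0994, adjusted p = 0.000258). In all 3 genes the groups stood far apart relative to the spread within them.

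The pair of inhibitor-of-apoptosis genes that neighbour each other on chromosome 11 both rose, to different extents. BIRC3 (102317450 to 102339403), a standard NF-kB target, was at 0.594, 0.610 and 0.550 FPKM in shCtrl and at 1.18, 1.07 and 1.22 FPKM in shCAVIN1, 1.98-fold higher (log2 0.61, SE 0.0820, adjusted p = 0.00126). BIRC2 (102347211 to 102378670), its close relative and the more abundant of them, rose 1.20-fold from 20.7 ± 0.917 to 24.9 ± 0.849 FPKM (log2 0.26, adjusted p = 0.00494), which under TPM was a larger fold that missed the threshold (log2 0.38, adjusted p = 0.127). VCAM1, the endothelial and stromal adhesion molecule that binds integrins of leukocytes, was at 0.443, 0.479 and 0.392 FPKM in shCtrl and at 0.912, 0.806 and 0.771 FPKM in shCAVIN1 (log2 0.50, SE 0.0942, adjusted p = 0.00492). The groups did not overlap, though both were low.

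ICAM1, the other adhesion molecule, rose 1.39-fold from 0.914 ± 0.102 to 1.27 ± 0.158 FPKM (log2 0.32, adjusted p = 0.0390), close to the threshold. Its call was lost in 6 of the alternative fits, among them those without shCtrl replicate 1 or 3 and without shCAVIN1 replicate 2 or 3, at log2 fold changes of 0.26 to 0.34 and adjusted p of 0.0741 to 0.124. SOD2, the mitochondrial superoxide dismutase, rose 1.27-fold from 37.1 ± 1.98 to 47.1 ± 0.167 FPKM (log2 0.34, adjusted p = 0.00149), and missed the threshold after rescaling to TPM with a larger fold (log2 0.46, adjusted p = 0.0837). SOD2 overlaps exons of WTAP and ACAT2 on the opposite strand, at mean levels of 50.8 and 66.9 FPKM, and whether the counting used the strand, which the library kit keeps, is not stated.

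The early response gene IER3 was the most abundant of the 42 genes in shCtrl, at 49.3, 67.4 and 53.4 FPKM, and stood at 56.5, 62.2 and 66.1 FPKM in shCAVIN1 (log2 0.13, SE 0.124, adjusted p = 0.410). It passed without shCtrl replicate 2, its highest control (log2 0.26, adjusted p = 0.0344). RIPK2, a kinase downstream of bacterial sensors, did not pass (5.63 ± 0.430 and 6.39 ± 0.333 FPKM, adjusted p = 0.0787), but did without shCtrl replicate 2 (0.0275), under quantile normalization (0.0322) and under protein-coding TPM (0.0480). IRF1, a transcription factor shared by the NF-kB and interferon pathways, was at 7.99 ± 0.0851 FPKM in shCtrl and 8.02 ± 0.161 FPKM in shCAVIN1 (log2 0.00, SE 0.0395, adjusted p = 0.937). TRAF1, an adaptor of TNF receptors, was below the filter at 0.130 to 0.270 FPKM, with overlapping groups.

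**Figure D3:**
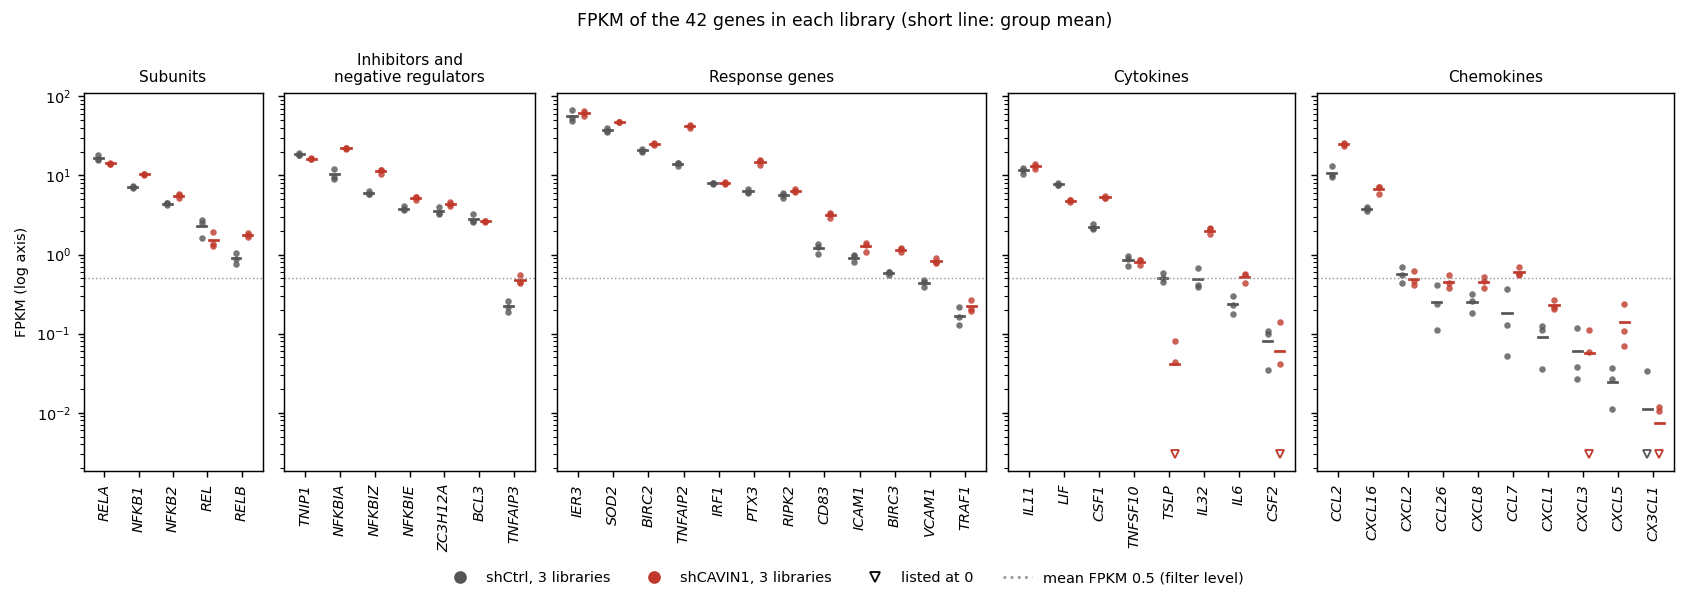
FPKM of the 42 genes in each library (log axis, points are libraries, short lines group means, 3 per group, open triangles mark values listed at 0, dotted line the filter level of 0.5), by role and in order of the shCtrl mean. Subunits, inhibitors and response genes lie mostly above the dotted line, and 10 of the 18 cytokines and chemokines are below the filter.

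Most cytokine and chemokine genes were low: 10 of 18 had a mean under 0.5 FPKM and were not tested. Of the 8 tested, 4 rose (IL32, CSF1, CXCL16 and CCL2), 1 fell (LIF) and 3 did not pass. These are shares of 50% and 12.5%, where 27.3% of all tested genes rose and 28.2% fell. CCL2, the chemokine that attracts monocytes (chromosome 17, 34255218 to 34257203, plus strand), was at 9.44, 13.1 and 10.1 FPKM in shCtrl and at 25.4, 23.9 and 25.2 FPKM in shCAVIN1. It was the most abundant of the 18 in shCAVIN1 and rose 2.28-fold (log2 1.17, SE 0.117, adjusted p = 0.000395). CSF1, the growth factor of macrophages (chromosome 1, 109910242 to 109930992), was at 2.45, 2.11 and 2.16 FPKM in shCtrl and at 5.21, 5.51 and 5.13 FPKM in shCAVIN1 (log2 1.08, SE 0.0673, adjusted p = 7.54e-05). CXCL16, a chemokine made as a membrane-bound form that also takes up oxidised lipoprotein, was at 3.55, 3.93 and 3.82 FPKM in shCtrl and at 7.19, 7.06 and 5.84 FPKM in shCAVIN1, 1.78-fold higher (log2 0.75, SE 0.0880, adjusted p = 0.000747). For each of CCL2, CSF1 and CXCL16 all shCAVIN1 libraries were above all controls.

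IL32, a cytokine that induces other inflammatory cytokines (chromosome 16, 3065297 to 3082192), had the largest rise of the 8 by fold of mean FPKM. It was at 0.408, 0.667 and 0.388 FPKM in shCtrl and at 1.79, 2.16 and 2.08 FPKM in shCAVIN1, 4.12-fold higher on plain FPKM (log2 1.35 on the scale of the test, SE 0.133, adjusted p = 0.000363). Its control mean was under the filter, so it was tested through its level in shCAVIN1. LIF, a cytokine of the IL-6 family that signals through LIFR and IL6ST (chromosome 22, 30240447 to 30246851, minus strand), was at 7.58, 8.01 and 7.52 FPKM in shCtrl and at 4.64, 4.87 and 4.85 FPKM in shCAVIN1. All shCAVIN1 libraries were below all controls, at 62.1% of the control mean (log2 -0.63, SE 0.0475, adjusted p = 0.000137). IL11, a second IL-6 family cytokine tied to fibrosis and at a level close to that of CCL2 in shCtrl, did not pass, at 11.6 ± 1.07 and 13.2 ± 0.891 FPKM (log2 0.17, adjusted p = 0.118), nor did the death ligand TNFSF10 (0.841 ± 0.122 and 0.813 ± 0.0631 FPKM) and CXCL2 (0.563 ± 0.127 and 0.496 ± 0.111 FPKM).

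Among the 12 genes below the filter, 6 were higher in every shCAVIN1 library than in any control (TNFAIP3, IL6, CXCL1, CXCL5, CXCL8 and CCL7) and 1, TSLP, was lower. Of all 5706 genes with a mean from 0.02 to under 0.5 FPKM, where 11 of the 12 lie, 16.6% did not overlap on the higher side and 17.1% on the lower. An exact permutation test of 3 libraries against 3 cannot go below a two-sided p of 0.1 for a single gene. With no filter on low values, limma called 18.7% of all genes in that fit higher and 19.0% lower. Of the 12 genes it called 5 higher, at adjusted p of 0.00900 for IL6, 0.0166 for CXCL1, 0.0213 for CCL7, 0.0288 for CXCL8 and 0.00414 for TNFAIP3. CXCL5 did not pass (0.0773), and TSLP was called lower (0.000464). That fit reads the same values as the overlap above, so it is no separate support. At such levels a value can rest on few fragments, and the absolute depth is unknown.

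IL6, the central fever and acute-phase cytokine, was at 0.176, 0.233 and 0.302 FPKM in shCtrl and at 0.434, 0.571 and 0.544 FPKM in shCAVIN1. CXCL8, the main chemokine for neutrophils, was at 0.184, 0.316 and 0.257 FPKM in shCtrl and at 0.377, 0.515 and 0.468 FPKM in shCAVIN1. CCL7, a monocyte chemokine that lies beside CCL2 on chromosome 17, was at 0.128, 0.366 and 0.0517 FPKM in shCtrl and at 0.569, 0.698 and 0.555 FPKM in shCAVIN1. All 3 stayed under 1 FPKM in every library of both groups. TSLP, an epithelial and stromal cytokine of allergic inflammation, was at 0.454, 0.583 and 0.5002 FPKM in shCtrl and at 0.0806 FPKM, 0 and 0.0436 FPKM in shCAVIN1. TSLP and LIF were thus the secreted factors of the list with lower libraries throughout. CXCL1 was at most 0.264 FPKM, CXCL5 at most 0.239, CXCL3 at most 0.117, CSF2 at most 0.140, CX3CL1 at most 0.0338 and CCL26 at most 0.552 FPKM in any library. CXCL1, CXCL2 and CXCL3 resemble each other and are uncertain: 4.81%, 12.5% and 6.01% of the 50-base words of their transcripts occur in another gene. The shares were larger for IER3 (23.1%), IRF1 (22%), ICAM1 (21.2%) and IL6 (15.3%), whose exons overlap genes on the opposite strand, and since the strand setting is unknown their values are uncertain too.

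**Figure D4:**
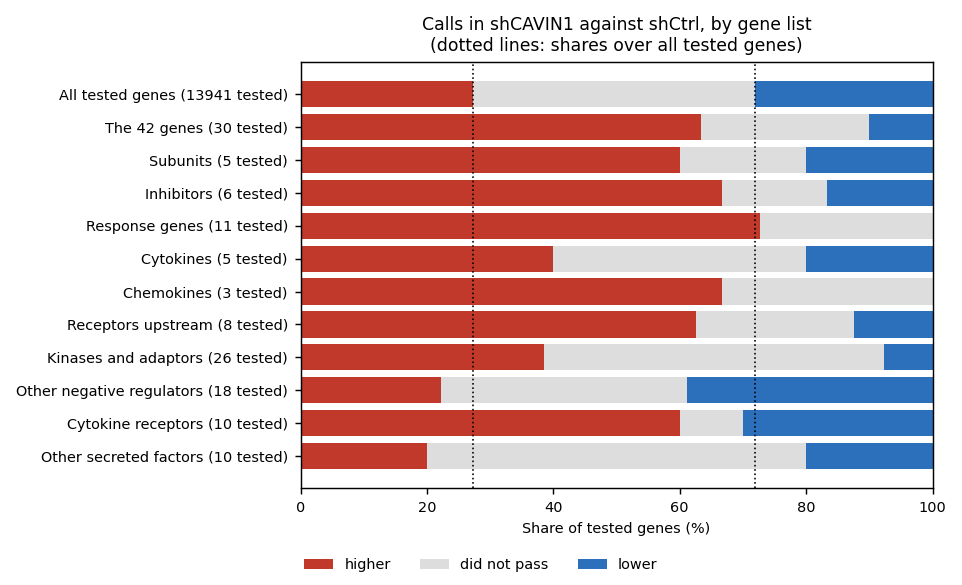
Share of tested genes that were higher, did not pass or were lower in shCAVIN1, for each gene list and for all tested genes (dotted lines at 27.3% from the left and 28.2% from the right). The response genes have 72.7% higher and none lower, while the other negative regulators have 22.2% higher and 38.9% lower.

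Genes that carry signals to NF-kB were then read from further lists. Of 8 tested receptors that feed the pathway, 5 rose (62.5%, against 27.3% of all tested genes) and 1 fell (12.5%, against 28.2%). TLR3 and TLR6 were tested only through the group where they are high, since their mean in the other group was under 0.5 FPKM. TNFRSF1A, the main TNF receptor, rose 1.16-fold to 29.9 ± 0.291 FPKM (adjusted p = 0.00507), and TNFRSF1B, the second TNF receptor, rose 2.12-fold from 0.667 ± 0.0710 to 1.42 ± 0.223 FPKM (adjusted p = 0.00243). TLR3, a sensor of double-stranded RNA, rose 3.26-fold from 0.399 ± 0.0834 to 1.30 ± 0.180 FPKM (log2 1.003, adjusted p = 0.000743). TLR6, which pairs with TLR2 to sense bacterial lipopeptides, fell to 24.7% of control, from 0.979 ± 0.0370 to 0.241 ± 0.0375 FPKM (log2 -0.997, adjusted p = 0.000281). The TWEAK receptor TNFRSF12A, the most abundant of these receptors, rose 1.25-fold to 296.7 ± 21.5 FPKM (adjusted p = 0.0140), and the lymphotoxin receptor LTBR rose 1.16-fold (adjusted p = 0.0456).

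Of 26 tested kinases and adaptors, 10 rose (38.5%, against 27.3% of all tested genes) and 2 fell (7.69%, against 28.2%), with a median log2 fold change of 0.09. IKBKB, the catalytic kinase of the canonical branch, rose 1.24-fold from 6.62 ± 0.165 to 8.19 ± 0.179 FPKM (adjusted p = 0.00191). The adaptors TRAF3 and TAB3 and the kinases IRAK1 and IKBKE rose 1.33-fold, 1.45-fold, 1.28-fold and 1.34-fold, and TRAF5 fell to 62.6% of control (log2 -0.59, adjusted p = 0.000322). Of 18 tested negative regulators outside the 42 genes, 4 rose (22.2%, against 27.3% of all tested genes) and 7 fell (38.9%, against 28.2%), with a median log2 fold change of -0.05. NKRF, a repressor at NF-kB promoters, fell to 68.5% of control, the ligase ITCH to 70.8%, PIAS1 to 75.1% and the receptor inhibitor SIGIRR to 52.4% (from 4.85 ± 0.573 FPKM), and PDLIM2, a ligase for RELA, rose 1.84-fold to 43.3 ± 2.11 FPKM (adjusted p = 0.000123). OTUD7B, a deubiquitinase, rose 1.31-fold. Over these 3 lists 29 of 52 tested genes changed (55.8%, against 55.5% of all tested genes), 19 higher and 10 lower. After rescaling to TPM 10 changed, in a fit that called 24.5% of all tested genes.

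A further list held 24 cytokine and chemokine receptors. Not all of them bind a cytokine or chemokine of the main list, so the shares here are not those of its receptors alone. Of the 24, 10 passed the filter and were tested. Of these 6 rose (60%, against 27.3% of all tested genes) and 3 fell (30%, against 28.2%). IL6R, the binding chain for IL-6, rose 4.004-fold from 0.453 ± 0.0421 to 1.81 ± 0.121 FPKM (log2 1.28, adjusted p = 8.71e-05). Its control mean was under the filter, so it was tested only through its level in shCAVIN1. OSMR and LIFR, which bind other members of that family, fell to 49.7% and 74.8% of control (adjusted p of 0.000876 and 0.000889 by limma). The TRAIL receptor TNFRSF10B rose 1.49-fold to 27.6 ± 0.634 FPKM and IL7R, a chain shared by the IL-7 and TSLP receptors, 1.58-fold to 22.3 ± 0.775 FPKM. The scavenging chemokine receptor ACKR3 fell to 61.8% of control (adjusted p = 0.00118). Of the signalling receptors of the listed chemokines, CXCR1, CXCR2, CCR2, CCR3 and CX3CR1 stayed at or below 0.0306 FPKM. CXCR6, the receptor of CXCL16, was also below the filter, at 0.557, 0.277 and 0.478 FPKM in shCtrl and at 0.402, 0.319 and 0.330 FPKM in shCAVIN1, with overlapping groups. CSF1R, the receptor of CSF1, stayed at or below 0.132 FPKM.

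Of 31 other secreted cytokines and chemokines, 10 were tested, 2 rose (20%, against 27.3% of all tested genes) and 2 fell (20%, against 28.2%). IL15 rose 1.56-fold to 2.64 ± 0.168 FPKM (adjusted p = 0.00115) and CTF1 1.28-fold (adjusted p = 0.0384). IL16 fell to 27.6% of control, from 0.863 ± 0.116 FPKM (adjusted p = 0.000807), and TNFSF15 to 60.4% (adjusted p = 0.00829). Both passed the filter only through shCtrl, where they are high. TNF itself, the prototype inducer of the pathway, was at most 0.0219 FPKM in any library, and the interferon-induced chemokines CXCL9 and CXCL10 were listed at 0 in all. Not all untested factors were alike in the groups. CCL11 was at 0, 0.105 and 0 FPKM in shCtrl and at 0.836, 0.6995 and 0.878 FPKM in shCAVIN1. IL7 averaged 0.0357 and 0.224 FPKM and IL34 0.102 and 0.0389 FPKM, also without overlap.

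Within the control group the levels of the 42 genes ran from 56.7 FPKM for IER3 to 0.0112 FPKM for CX3CL1. Of the 41 pairs of neighbours in that order, 13 differed by more than the sum of their SDs, and 28, such as CCL2 and NFKBIA, did not. Among the controls, replicate 2 was the highest library for 22 of the 30 tested genes (73.3%), against 51.8% of all tested genes, and NFKBIA, CCL2 and IER3 were among them. Without that library 25 of 29 tested genes changed, 21 higher and 4 lower, and over all genes tested in that fit 61.1% changed, 31.0% higher and 30.1% lower. Of the 22 genes called over all libraries, 15 passed in each of the 16 alternative fits that tested them: NFKB1, RELB, NFKBIA, NFKBIE, NFKBIZ, TNFAIP2, BIRC3, VCAM1, CD83, PTX3, IL32, LIF, CSF1, CXCL16 and CCL2. All 22 kept their direction.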

How the data were processed

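RNA sequencing of 6 libraries was read from a single table of FPKM values. The authors deposited FPKM per gene and library. Per the submitters' processing notes, GRCh38 was used, with TopHat2 2.2.5, TopHat, bcl2fastq 2.17.1.14 and CASAVA. Which quantifier, annotation, filters and strand setting they used is not given in the sources used here. No counts were used, so absolute depth is unknown, no counting interval can be given, and low values are least precise. Genes with a mean FPKM of at least 0.5 (13941) were tested with limma 3.58.1 in R 4.3.3 on log2(FPKM + 0.5), with group as the only term, trended variance moderation and Benjamini-Hochberg adjustment over all tested genes. The test was tested on simulated data. Folds of single genes are ratios of mean FPKM. Positions and overlaps come from GENCODE 29 (GRCh38), and promoter windows from RefSeq (GRCh38.p14). The kappa B consensus was searched as a run of G, a purine, any base, A or T, a pair of pyrimidines and a pair of C, 10 bases in all; overlapping matches were merged. Genes and lists were chosen with earlier results of these data known. All 42 genes are named, with every library's value for subunits and for genes past the threshold with an absolute log2 fold change of at least 0.4; in other lists up to 6 genes with the lowest adjusted p are named. Alternatives covered pseudocounts, filters, scalings, robust variances, the replicate number as a block and leaving out each library; protein-coding TPM was added after seeing the data.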

Additional observations from a re-analysis of the deposited data

How the results depend on the processing

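Calls were recomputed under 16 alternatives. Leaving out each library in turn gave 18 to 25 changed genes of the 42 (22 with all libraries), 6 to 10 subunits and inhibitors (9), 7 to 10 response genes (8), 5 cytokines and chemokines each time (5), 21 to 31 upstream pathway genes (29) and 6227 to 8511 genes in all (7734). In these fits 44.7% to 61.1% of all tested genes changed (55.5% with all libraries). CAVIN1 passed in every fit. After rescaling to TPM the changed genes were 5 for subunits and inhibitors, 5 for response genes, 10 for upstream pathway genes and 3496 in all, against 15 of the 42 genes. That fit called 24.5% of all tested genes. A filter at a mean FPKM of 2, which leaves fewer genes to test, gave 5 response genes and 2 other secreted factors. At that filter 57.7% of all tested genes changed. Of cytokines and chemokines, 10 changed with no filter and 9 under protein-coding TPM, fits in which more of them were tested. Shares of 37.7% and 53.6% of all genes in those fits changed. With the replicate number as a block 23 of the 30 tested genes of the list changed, where 51.4% of all tested genes did. REL joined the lower genes (limma adjusted p = 0.0457) and no call was lost. Deviations from the group means correlated between same-numbered libraries at r = 0.0936, 0.0714 and -0.0282, and between libraries of different numbers at r from -0.146 to 0.0772. With so few libraries these values cannot show whether the numbers pair the samples. Depth is unknown, which limits the 12 genes below the filter most.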
